A study of Arabidopsis thaliana with 6 samples.

Results

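Glycine decarboxylase is a mitochondrial enzyme complex of photorespiration, and its H and T protein genes, AT1G32470 and AT1G11860, were followed over all 6 arrays of the series. They were chosen by gene identity, with earlier results of these data known. They are 2 of 13350 genes with a named probe set, of 22746 probe sets on each array. The probe sets are 260704_at for the H protein gene and 264394_at for the T protein gene. Both genes lie on chromosome 1. Total RNA came from whole 15-day-old Arabidopsis thaliana seedlings of ecotype Col-0, 3 arrays of wild type and 3 of the gapcp1gapcp2 double mutant, each titled a biological replicate. GAPCP1 and GAPCP2 encode the glyceraldehyde-3-phosphate dehydrogenase of plastid glycolysis. Every seedling of both genotypes had received 0.75 µM abscisic acid (ABA), a stress hormone, for 8 days, under 16 h of light and 8 h of dark at 22 °C, and no untreated plants were compared. How many seedlings made up a sample and what the mutant alleles are is not given in the sources used here.

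In photorespiration, phosphoglycolate made when Rubisco fixes oxygen is turned into glycolate in the chloroplast, and glycolate into glycine in the peroxisome. Mitochondrial glycine decarboxylase together with serine hydroxymethyltransferase turns glycine into serine. Serine then returns to the peroxisome and, through hydroxypyruvate and glycerate, to the chloroplast. In the decarboxylase the P protein removes carbon dioxide from glycine, the H protein carries the remaining aminomethyl group on its lipoyl arm, the T protein releases ammonia and passes the one-carbon unit to tetrahydrofolate, and the L protein reoxidises the lipoyl arm. The plastid phosphorylated pathway is another route to serine, and it starts from 3-phosphoglycerate, downstream of the step that GAPCP1 and GAPCP2 catalyse. The comparison asks whether transcripts of the photorespiratory route to serine differ in level in the mutant.

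Array medians lay between 105.8 and 113.0, and between 395 and 785 values per array were below 0. GAPCP1 and GAPCP2 could not be found by name among the probe sets, so the genotype labels have no check from the targeted genes. Of the markers of leaf mesophyll, 5 of 12 had a named probe set, and their summed intensity ranged from 36660 to 39220 in wild type and from 36700 to 39620 in the mutant. Of the root markers, 4 of 9 had one, with sums from 5440 to 7548 and from 5004 to 7123. The seed storage markers, 9 in number, had no named probe set, so a free-text label that speaks of embryos was not tested against them.

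Transcripts of both genes gave bright signals and did not pass the test between the genotypes. Array values are given throughout in the order of replicates 1, 2 and 3. For the H protein gene the wild type arrays gave intensities of 3895, 4557 and 3787, and the mutant arrays 4298, 3996 and 4024. Wild type 2 was the highest array and wild type 3 the lowest, and all 3 mutant arrays fell between them. The wild type arrays averaged 4079 ± 417 against 4106 ± 166 for the mutant arrays (SD, n = 3). On the log2(intensity + 16) scale the mutant minus wild type difference was 0.014 ± 0.086 (SE), with a 95% interval from -0.18 to 0.21 (limma adjusted p = 1.00). As a ratio of mutant to wild type, that interval runs from 0.882 to 1.16.

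For the T protein gene the wild type arrays gave 4020, 4437 and 3578, and the mutant arrays 4058, 3564 and 4412. The genotypes overlapped over nearly their whole range, with 1 low and 1 high array in each. The averages were 4012 ± 430 and 4012 ± 426 (SD, n = 3). The log2 difference was 3.85e-06 ± 0.10 (SE), with a 95% interval from -0.24 to 0.24 (limma adjusted p = 1.00), or a ratio of mutant to wild type from 0.848 to 1.18. Among the 688 probe sets with a mean intensity of at least 2000, 0 had a smaller absolute difference than the T protein gene, and 17.2% had a smaller one than the H protein gene. As a change in percent, these intervals run from -11.8% to 15.5% for H and from -15.2% to 18.0% for T. A p that misses the threshold therefore does not show equal levels. The sign of both differences turned when single arrays were left out, and no direction is drawn from them.

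These values stand in a comparison in which limma called 0 of the 15923 probe sets tested (0%) at an adjusted p of 0.05, 0 higher and 0 lower in the mutant. At an unadjusted p under 0.05 there were 273 (1.71%), and neither gene was among them. The genotypes did not overlap for 999 probe sets (6.27%), and did overlap for both of these.

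**Figure D1:**
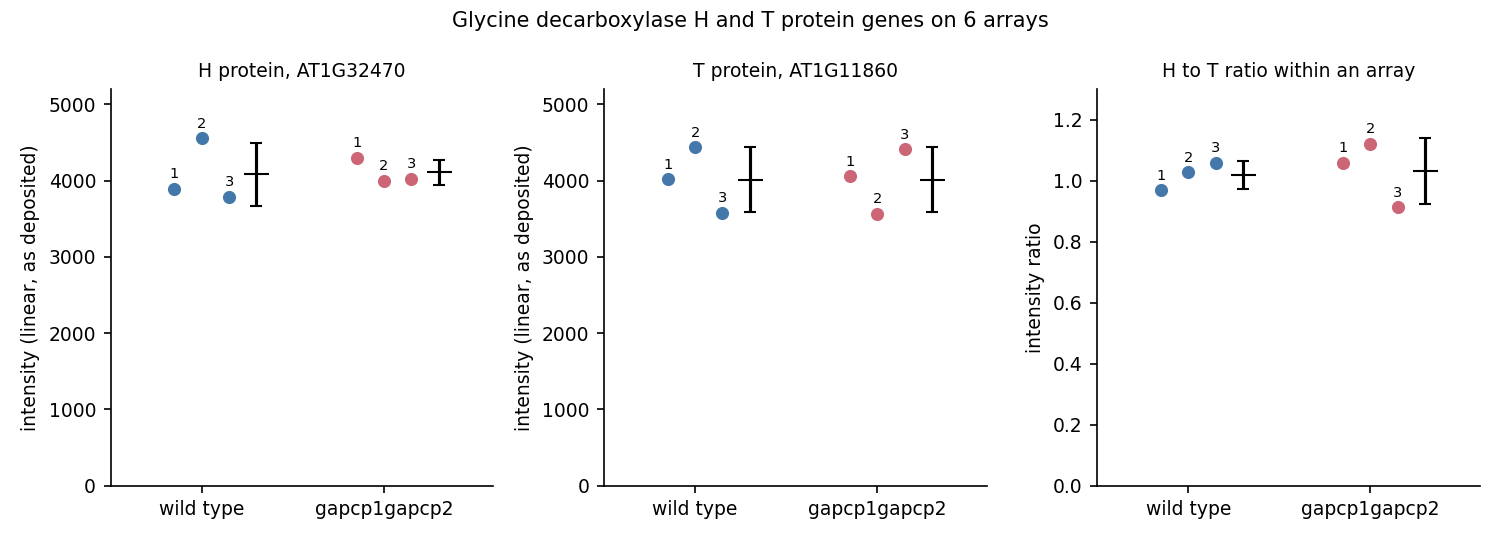
Intensity of the H and the T protein gene and their ratio on each array, by genotype. Points are arrays numbered by replicate, horizontal marks are means and bars are SD (n = 3). Wild type 2 is the highest array for both genes, and the H to T ratio lies between 0.912 and 1.12.

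The intensity ratio of the H to the T probe set within an array stayed close to 1. The wild type arrays gave ratios of 0.969, 1.03 and 1.06, and the mutant arrays 1.06, 1.12 and 0.912. The highest and the lowest ratio were both in the mutant, so the wild type arrays lay inside the mutant range. The ratio averaged 1.02 ± 0.045 for wild type against 1.03 ± 0.107 for the mutant (SD, n = 3). Its log2 difference was 0.014, with p = 0.90 in a two-sided exact permutation test over the 20 splits of the arrays, where 0.10 is the smallest p that 3 against 3 arrays allow. A limma estimate that borrowed the variance prior of the H row gave the difference a 95% interval from -0.19 to 0.22. Probe sets differ in how strongly they hybridise, so a ratio near 1 does not say that the transcripts are equally abundant. Only its change between arrays can be read.

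Both probe sets were among the brightest of the array. By intensity the H protein gene ranked between 159 and 228 of 22746 probe sets over the 6 arrays, and the T protein gene between 172 and 260. Each ranked best on wild type 2. Among the 13513 probe sets with 1 named gene the ranks ran from 58 to 78 for H and from 61 to 88 for T. H had 34.5 to 41.3 times the array median and T 33.1 to 40.2 times. Ranks over all 6 arrays placed the genes close together, at 196 and 206 by mean intensity, and the gap between their means was smaller than the spread of either over arrays (4093 ± 284 for H and 4012 ± 383 for T, SD over 6 arrays).

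Among probe sets with 1 named gene, the nearest above H was UBC28, a ubiquitin-conjugating enzyme gene, at 4116, followed by the ribosomal protein gene AT4G27090 at 4192 and CP5 at 4274. The named ones between H and T were ndhA, a plastid-encoded NDH subunit gene, at 4081, the ribosomal protein genes AT3G09200 at 4058 and AT1G67430 at 4057, and AT4G16190 at 4021. The nearest named ones below T were AT3G13120, for a plastid ribosomal protein, at 4001, the ribosomal protein gene AT3G62870 at 3988 and AT5G24490 at 3985. None of these neighbours is separated from H or T by more than the SD of H over the arrays. Such an order also depends on the probes of each set.

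**Figure D2:**
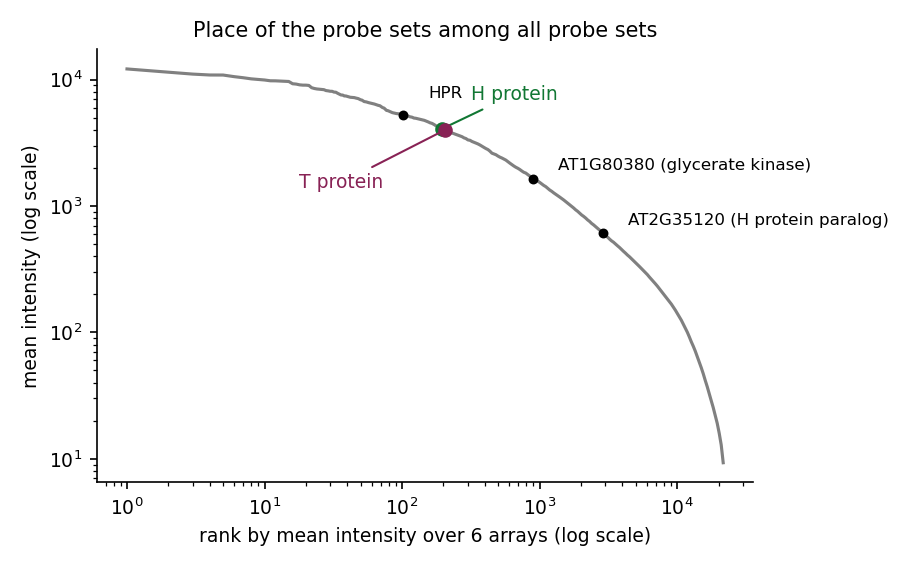
Mean intensity over 6 arrays against rank for all probe sets (grey line, dimmest ones not drawn), both axes on a log scale. The H and T protein genes sit together near ranks 196 and 206, below HPR and above AT1G80380 and the H protein paralog AT2G35120.

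Between arrays, H varied about as much as the median bright probe set, and T varied more than most of them. The highest over the lowest intensity was 1.20 for H and 1.25 for T, and the coefficients of variation over 6 arrays were 6.95% and 9.54%. Among the 688 bright probe sets the median SD of log2 values was 0.098. For H the SD was 0.098, larger than in 49.7% of them, and for T 0.14, larger than in 77.3%. T was therefore the more variable of the pair on these arrays, and that difference was not tested.

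The third measured gene of the complex was the H protein paralog AT2G35120, which did not share the order of AT1G32470 over the arrays. Its wild type arrays gave 705, 502 and 624, and its mutant arrays 488, 735 and 608. It was lowest on mutant 1 and wild type 2, the arrays on which AT1G32470 was highest. The intensity ratio of AT1G32470 to AT2G35120 was 5.52, 9.08 and 6.07 in the wild type arrays and 8.81, 5.44 and 6.62 in the mutant arrays, a quantity chosen after these values were seen. It spanned 1.67-fold over arrays, while its genotype means were 6.89 ± 1.92 and 6.96 ± 1.71 (SD, n = 3). AT2G35120 did not pass between the genotypes either, with a log2 difference of -0.0061 ± 0.17 (SE, limma adjusted p = 1.00). The P protein genes, the H protein gene GDCH (AT2G35370) and the L protein genes, listed with it, had no probe set with 1 named gene and were not analysed here. Whether the probes of AT1G32470 also bind transcripts of its paralogs was not examined, since probe sequences were not used here.

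Other photorespiration genes were measured for 5 of 27 listed members, and 0 of these 5 passed in either direction. HPR encodes the peroxisomal hydroxypyruvate reductase, which acts after serine, and gave 4888, 6018 and 4896 on the wild type arrays against 6051, 4632 and 5182 on the mutant arrays. The glycerate kinase gene AT1G80380, for the last enzyme of the cycle, gave 1547, 1998 and 1527 against 1827, 1326 and 1676. LrgB (AT1G32080), for the plastid glycolate and glycerate transporter, gave 1868, 2176 and 1827 against 2107, 1804 and 2019. All 3 genes had their highest 2 arrays in wild type 2 and mutant 1, as did the H protein gene, and their lowest in mutant 2, as did the T protein gene. Such an order was frequent on these arrays: wild type 2 and mutant 1 were the highest 2 arrays for 2570 of the 15923 probe sets tested (16.1%) and for 141 of the 688 bright ones (20.5%). Among the leaf markers it held for SBPASE (4966 and 4893 on these arrays) and PRK (6860 and 6955), both of the Calvin-Benson cycle. It did not hold for the other measured ones, RCA (9611 and 10050), LHCB4.1 (8649 and 9438) and PSAE-1 (7968 and 8288). Wild type 1 was higher than wild type 2 for each of these. Over all probe sets tested, the deviations of wild type 2 and mutant 1 from their genotype means correlated at 0.595 across probe sets, which are not independent replicates. It was the highest value among all pairs of a wild type with a mutant array, and wild type 1 with mutant 1 gave -0.586. Deviations within a genotype sum to 0, so the values of different pairs are linked. On mutant 3, T was high, 0.14 above its log2 mean, while HPR and AT1G80380 were at -0.019 and 0.035 of theirs.

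The remaining members did not share that order. AT4G22840 (BASS6), for another plastid glycolate transporter, gave 160, 124 and 141 on the wild type arrays against 125, 174 and 159 on the mutant arrays, and was lowest where the H protein gene was highest. AT1G79870, for the cytosolic hydroxypyruvate reductase, gave 913, 920 and 768 against 754, 814 and 862, and followed neither order. Between the genotypes the log2 differences of the 5 genes ran from -0.094 for AT1G79870 to 0.096 for AT4G22840, with a median of 0.0041, beside a median of -0.0031 over all probe sets tested.

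**Figure D3:**
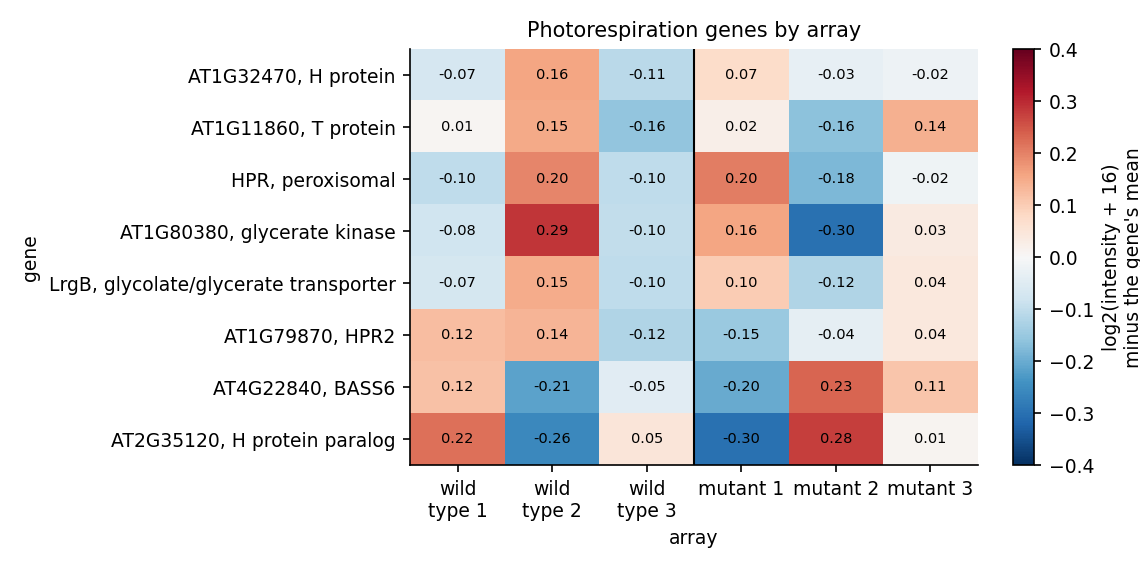
Deviation of log2(intensity + 16) from each gene's mean, for the measured genes of glycine decarboxylase and photorespiration (rows) on each array (columns, wild type left of the line). The H protein gene, HPR, AT1G80380 and LrgB are above their means on wild type 2 and mutant 1, where AT4G22840 and AT2G35120 are below theirs.

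Correlations over the 6 arrays put numbers on this order, in a family of 17 relations of H or T with each other, with these genes and with the marker sums. H with T had a Pearson r of 0.65 (exact permutation p = 0.171, adjusted 0.323) and a Spearman rho of 0.77 (exact permutation p = 0.103, adjusted 0.231). H with LrgB had r = 0.90 (exact permutation p = 0.00833, adjusted 0.142) and rho = 0.83 (exact permutation p = 0.0583, adjusted 0.231), and H with HPR had r = 0.87 (exact permutation p = 0.0333, adjusted 0.175) and rho = 0.71 (exact permutation p = 0.136, adjusted 0.231). None of the 17 passed after Benjamini-Hochberg adjustment.

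T with AT1G80380 had r = 0.81 (exact permutation p = 0.0458, adjusted 0.175) and rho = 0.94 (exact permutation p = 0.0167, adjusted 0.142). H with AT2G35120 had r = -0.79 (exact permutation p = 0.0722, adjusted 0.205) and rho = -0.71 (exact permutation p = 0.136, adjusted 0.231). The 2 arrays farthest from the median of H are wild type 2 and mutant 1. Over the few arrays left without them, r was 0.51 for H with T, 0.50 with LrgB, 0.11 with HPR and 0.18 with AT2G35120. H with AT1G80380 went from 0.80 to -0.038, and H with AT4G22840 from -0.68 to 0.82. The relations of H with HPR, AT2G35120, AT1G80380 and AT4G22840 were thus weaker or of the other sign without that pair of arrays. Wild type 2 and mutant 1 are the arrays where H was highest, so leaving them out also narrows its range. Whether the relations rest on that pair can therefore not be decided here. Without mutant 2 and wild type 3, the arrays farthest from the median of T, r was 0.52 for T with AT1G80380.

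Organ markers were set beside the members on the same arrays. The root marker sum was lowest on mutant 1 and wild type 2 (5004 and 5440) and highest on wild type 1 and mutant 2 (7548 and 7123), a span of 1.51-fold. That sum adds linear intensities, so it follows mostly PYK10 (mean 4936) and NAI2 (1047). EXPA7 (61.6) and EXPA18 (143) add little to it. H with that sum had r = -0.62 (exact permutation p = 0.193, adjusted 0.328) and rho = -0.60 (exact permutation p = 0.242, adjusted 0.342), and T had r = -0.34 (exact permutation p = 0.481, adjusted 0.511) and rho = -0.49 (exact permutation p = 0.356, adjusted 0.378). The leaf marker sum spanned 1.08-fold, and H with it had r = 0.40 (exact permutation p = 0.435, adjusted 0.493) and rho = 0.54 (exact permutation p = 0.297, adjusted 0.378). T with the leaf sum had r = 0.38 (exact permutation p = 0.379, adjusted 0.467) and rho = 0.49 (exact permutation p = 0.356, adjusted 0.378), and r = -0.89 without mutant 2 and wild type 3. Without wild type 2 and mutant 1 the r of H was 0.30 with the root sum and -0.097 with the leaf sum. In whole seedlings fewer cells of a type and less RNA per cell cannot be told apart, and the part of organ make-up in these values was not tested.

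The genes most like each member over the 6 arrays were picked by Pearson correlation among the named probe sets above the filter. For H they were AT5G51110, CaS (a calcium sensor protein of the thylakoid), AT1G73600, AT2G29290 and AT1G09900, with r from 0.98 to 0.99 over 6 arrays. CaS, for example, gave 2808, 3621 and 2602 on the wild type arrays against 3252, 2918 and 2993 on the mutant arrays, highest and lowest on the same arrays as H. For T they were AT5G10910, XTH19 (a xyloglucan endotransglucosylase), AT1G12990, AT5G23130 and AT3G06980, all at r = 0.99. The lists share no gene. With 6 arrays, 162 named probe sets (1.85%) exceeded r = 0.9 with H and 180 (2.05%) did with T. With arrays centred on the median or quantile normalized, 2 of the 5 genes for H and 3 of the 5 for T stayed among the first 5. Of 8760 named probe sets compared, T stood at place 1339 in the list for H, and H at place 1698 in the list for T.

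Genes of one-carbon metabolism, which shares tetrahydrofolate with the T protein, gave no call. Neither did subunit genes of complexes that share the lipoyl cofactor with the H protein, though not every subunit carries it. Of 15 listed one-carbon genes 4 were tested and 0 passed. The folate dehydrogenase gene AT3G12290 averaged 1494 ± 147 for wild type against 1512 ± 47.3 for the mutant, and the formyltetrahydrofolate deformylase gene AT5G47435 1003 ± 28.4 against 1028 ± 111 (SD, n = 3). AT2G38660, another gene of the folate dehydrogenase family, had non-overlapping genotypes at 134 ± 0.314 and 138 ± 2.64 (SD, n = 3), a log2 difference of 0.036, and was 1 such gene of 19 tested in these lists, beside 6.27% of all probe sets tested.

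Of 12 listed genes of lipoylation and the other lipoyl complexes 7 were tested and 0 passed, with a median log2 difference of -0.032. All 7 were subunit genes of pyruvate dehydrogenase or 2-oxoglutarate dehydrogenase. The lipoylation genes LIP1 and LIP2 had no probe set with 1 named gene, so lipoylation itself was not examined. Of the 7 tested genes, 3 were fitted above 0 and 4 below. LTA3, for an acyltransferase subunit of mitochondrial pyruvate dehydrogenase, averaged 423 ± 32.2 for wild type against 382 ± 23.1 for the mutant (SD, n = 3), which is -0.14 ± 0.10 (SE) on the log2 scale. The lowest value, -0.41 ± 0.28 (SE), belonged to AT5G65750, for a 2-oxoglutarate dehydrogenase subunit, where mutant 2 stood at 54.2 and the other arrays between 126 and 156. The 6 listed genes of the phosphorylated serine pathway and the 11 of serine and glycine use had no probe set with 1 named gene and were not analysed here. Transcripts of the plastid route to serine were therefore not set beside those of glycine decarboxylase.

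**Figure D4:**
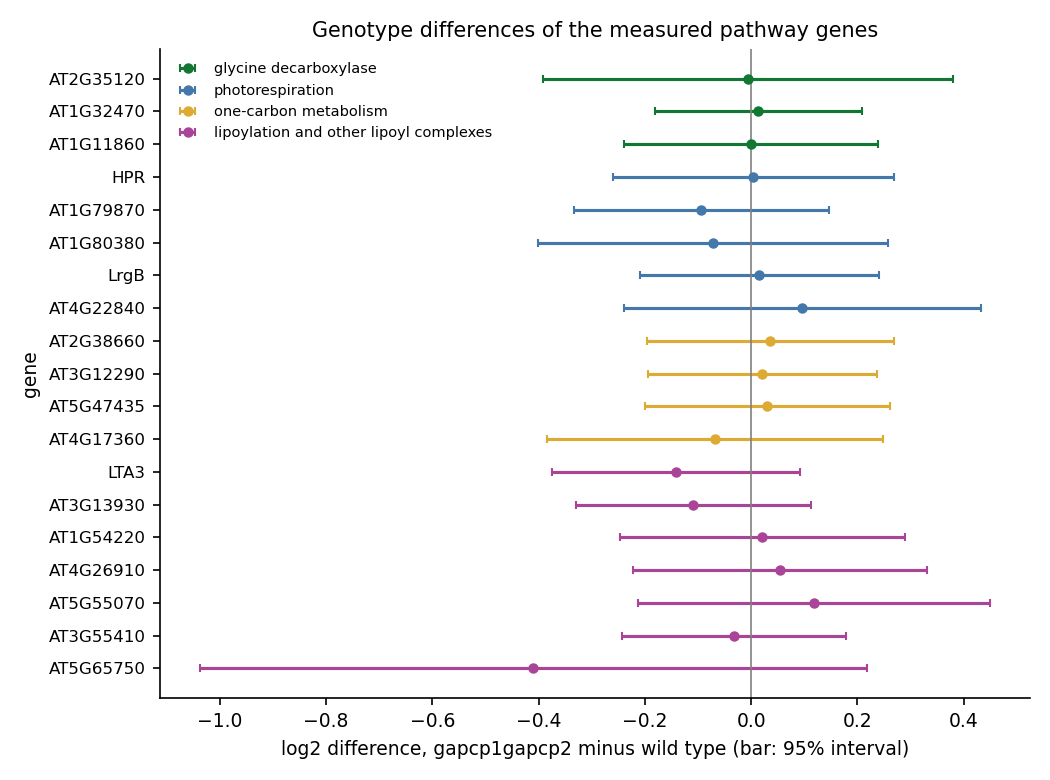
Log2 difference, gapcp1gapcp2 minus wild type, of the 19 tested genes of 4 pathway lists. Points are limma estimates and bars are 95% intervals. All 19 intervals include 0, and those of the H and T protein genes lie within -0.24 and 0.24.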

How the data were processed

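The values the authors deposited are linear intensities per probe set, with a column for every array. GCOS (Affymetrix) is named in the submitters' processing notes. Which version, summary over probes or scaling was used is not given in the sources used here. Something had been subtracted, since 3919 values were below 0. Probe sets were named through the platform's probe table, updated by gene ID through a RefSeq table of assembly TAIR10.1 (13513 with 1 gene, 503 with several, 8730 unnamed here). Coordinates are left out, since no build is named for the files.

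Values below 0 were raised to 0 and taken as log2(intensity + 16), with no scaling between arrays. Of all probe sets, those in the lowest 30% of mean intensity were not tested. The floor was not foreseen in the plan. All 15923 remaining probe sets were fitted with limma 3.58.1 in R 4.3.3 (lmFit, eBayes with an intensity trend, two-sided, Benjamini-Hochberg adjustment, threshold 0.05). The fit was tested on simulated data. Permutation tests used scipy 1.17.1 and figures matplotlib 3.10.9. Correlations used all 720 orders of the arrays. The number of arrays limits the precision. No array held the same values as another. The labels call the samples biological replicates and say that both genotypes were grown at one time. They do not say what separates one set from another, so p-values measure the spread between these samples.

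The members and gene lists were chosen with earlier results of these data known. Genes were named if they were members, measured list genes, the 5 most correlated with a member, or the 3 nearest in mean intensity on each side. Alternatives were other filters, pseudocounts, scalings and variance models, a block for the replicate number, and the fit without each array in turn.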

Additional observations from a re-analysis of the deposited data

How the results depend on the processing

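Under all 17 alternatives limma placed 0 probe sets past the threshold, the H and T protein genes included, and 0.999 was the smallest adjusted p. The 273 probe sets at an unadjusted p under 0.05 became 619 with no filter, 117 with the lowest 50% left out and 137 with the replicate block, and 253 to 388 with 1 array left out. The signs of the near-zero differences turned. With 1 array left out the H difference ranged from -0.038 to 0.095, below 0 without wild type 1 (-0.017), wild type 3 (-0.038) or mutant 1 (-0.020). The T difference ranged from -0.079 to 0.082, below 0 without wild type 3 (-0.079), mutant 1 (-0.011) or mutant 3 (-0.071). The log2 H to T ratio difference ranged from -0.050 to 0.099, below 0 without wild type 1 (-0.022), mutant 1 (-0.0086) or mutant 2 (-0.050). With quantile normalization the T difference was -0.011, and with array weights 0.041. The cause was not tested. Centring on the array median gave 0.019 for H and 0.0057 for T. With the replicate block the values were 0.014 for H, 3.85e-06 for T and 0.014 for the ratio, and no call changed. Every replicate number has an array of each genotype, so the block cannot move these differences, and their sameness is no check. The block did widen the limma intervals, to -0.23 to 0.26 for H and -0.315 to 0.315 for T. In the main fit they ran from -0.18 to 0.21 for H and from -0.24 to 0.24 for T. The plan did not treat the replicate numbers as pairs in the main fit. Deviations of arrays with the same number correlated at -0.59, -0.48 and -0.13. Centring and quantile normalization each kept 2 of the 5 genes most like H and 3 of the 5 most like T. The medians of the 4 pathway lists with tested genes moved by less than the spread between replicates in all 52 values recomputed. Those under the other filters could not move, since the same list genes were tested there, and the pseudocounts hardly moved them.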
